A study of Arabidopsis thaliana with 5 samples.

Results

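The genes that desaturate and elongate fatty acids, assemble them into triacylglycerol (TAG) and coat the resulting lipid droplet were followed in developing Arabidopsis seeds. The set held 39 of the 37336 genes in the count table, fixed by gene identifier with earlier results of these data known. It comprised 2 desaturases, 4 genes of fatty acid elongation, 12 of TAG assembly, 5 oleosins, 3 caleosins and 5 steroleosins. The rest were 4 genes listed as lipid droplet-associated proteins (LDAPs), 3 seipins and 1 oil body-associated protein. RNA was sequenced from whole seeds of dof4.1-3 (3 libraries), a T-DNA insertion mutant of the transcription factor gene DOF4.1 in the Col-0 background, and of wild-type Col-0 (2 libraries), both collected 9 days after pollination. The mutant was represented by this single insertion line, and no source used here says whether the libraries of a genotype were grown and collected separately. The p-values therefore cover the differences among these 5 libraries only, which may be technical. The comparison asked how the loss of DOF4.1 bears on seed-filling transcripts.

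Seed oil is made at the endoplasmic reticulum. The desaturase FAD2 turns oleate into linoleate and FAD3 turns linoleate into linolenate, while the elongase complex led by FAE1 makes the very long chains typical of Arabidopsis seeds. Acyltransferases then build TAG on a glycerol backbone, and the last acyl group is added by DGAT enzymes from acyl-CoA or by PDAT1 from a phospholipid. Seipins shape the site where droplets bud from the membrane, and oleosins, caleosins and steroleosins coat the droplet surface, with oleosins being the main coat of seed droplets.

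The libraries held 20101091, 21722055 and 21053818 gene counts in dof4.1-3, against 16500028 and 17049283 in Col-0. The targeted gene DOF4.1 (AT4G00940) had 3, 4 and 4 counts in dof4.1-3, against 1 and 14 in Col-0, which is too few to be tested or to check the genotype labels. From qRT-PCR, the paper reports that DOF4.1 expression in wild-type seeds began after this stage. Markers of embryo storage were summed at 118459 to 307260 CPM (counts scaled to library size with TMM factors, a level per library) in dof4.1-3, against 47124 to 90892 in Col-0, and the groups did not overlap, with 0 of 6 markers called by edgeR or limma-voom, 6 higher at an unadjusted p under 0.05 and 5 called higher by DESeq2. Seed coat markers were summed at 2607 to 3010 CPM in dof4.1-3, against 3883 to 4936 in Col-0, and all 7 tested markers had negative fold changes: 1 was called lower by edgeR, 3 by DESeq2 and 6 at an unadjusted p under 0.05. The sum of the endosperm markers overlapped between genotypes (6047 to 16689 CPM in dof4.1-3, against 6395 to 6824 in Col-0), but nearly all of it was EPR1. Of 5 tested endosperm markers 4 had negative fold changes, and RGE1 (log2 fold change -0.91) and ALE1 (-1.20) were lower in every dof4.1-3 library and called by DESeq2 (adjusted p = 0.0179 and 0.00796) but not by edgeR (adjusted p = 0.0851 and 0.0940), while IKU2 and WRKY10 were at or near 0. Silique wall markers were summed at 28.6 to 32.8 CPM in dof4.1-3, against 53.4 to 61.0 in Col-0, and 1 of 5 was called lower by edgeR (SHP2, log2 fold change -1.14, adjusted p = 0.0479). Pollen markers were summed at 4.21 to 13.8 CPM in dof4.1-3, against 12.3 to 25.4 in Col-0, with 0 of 3 tested markers called by edgeR and 1 lower by DESeq2. In whole seeds, fewer cells of a type and less RNA per cell cannot be told apart, and the part of tissue make-up in the values that follow was not tested. A difference in developmental stage between the genotypes cannot be told apart from these either, and its part was not tested. All libraries are given as 9 days after pollination (10 in the study's results text). Within a genotype, the storage proteins cruciferins and napins varied too, at 14.0%, 28.2% and 19.0% of gene counts in dof4.1-3. In Col-0 they took 9.82% and 6.12%.

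The upstream sequences of the 3 genes with the largest fold changes are shown, with matches to motifs known from seed maturation genes. These genes were picked by fold change, not by motif, and none of them was called by edgeR. The RY motif (CATGCA) is bound by B3-domain factors such as ABI3, and the G-box core (ACGTG) by bZIP factors. The sequences are the 250 bases before the annotated gene start in the RefSeq assembly TAIR10.1, read in the direction of the gene, with RY and ACGTG matches on either strand in capitals. They lie at chr1:1629196-1629445 on the plus strand for OBAP1A, at chr5:5378534-5378783 on the minus strand for the seipin AT5G16460 and at chr5:22405646-22405895 on the plus strand for the caleosin ATPXG2.
OBAP1A: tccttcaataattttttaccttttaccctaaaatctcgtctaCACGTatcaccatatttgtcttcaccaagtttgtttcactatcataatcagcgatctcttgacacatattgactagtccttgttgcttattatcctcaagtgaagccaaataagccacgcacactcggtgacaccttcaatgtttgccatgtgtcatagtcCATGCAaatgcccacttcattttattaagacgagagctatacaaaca
AT5G16460: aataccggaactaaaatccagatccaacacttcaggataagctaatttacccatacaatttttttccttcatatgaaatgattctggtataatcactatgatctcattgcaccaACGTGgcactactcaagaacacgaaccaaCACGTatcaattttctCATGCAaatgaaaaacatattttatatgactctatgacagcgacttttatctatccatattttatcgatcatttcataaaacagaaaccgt
ATPXG2: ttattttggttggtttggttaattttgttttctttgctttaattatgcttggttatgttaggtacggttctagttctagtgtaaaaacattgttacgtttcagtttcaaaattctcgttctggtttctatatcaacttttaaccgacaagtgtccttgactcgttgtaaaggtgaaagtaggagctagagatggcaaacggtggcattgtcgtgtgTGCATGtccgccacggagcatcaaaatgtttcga

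OBAP1A and AT5G16460 each held both motifs, and ATPXG2 held RY alone. The RY motif was present in 16 of the 39 upstream windows (41.0%), against 8.4% of 27438 windows of protein-coding genes. ACGTG was present in 15 (38.5%), against 22.9%, and both together in 8 (20.5%), against 2.2%. All 5 oleosins held RY, as did 2 of 3 caleosins and 3 of 5 steroleosins. It was in 0 of 4 LDAP genes and 2 of 12 TAG assembly genes, too few genes to set apart from the 8.4% of all windows. The DOF core AAAG, 4 letters long, was in 97.4% of the windows and in 98.0% of all windows. The AW-box of the oil regulator WRI1 was in 15.4%, against 9.3%. These matches describe letters, not binding.

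**Figure D1:**
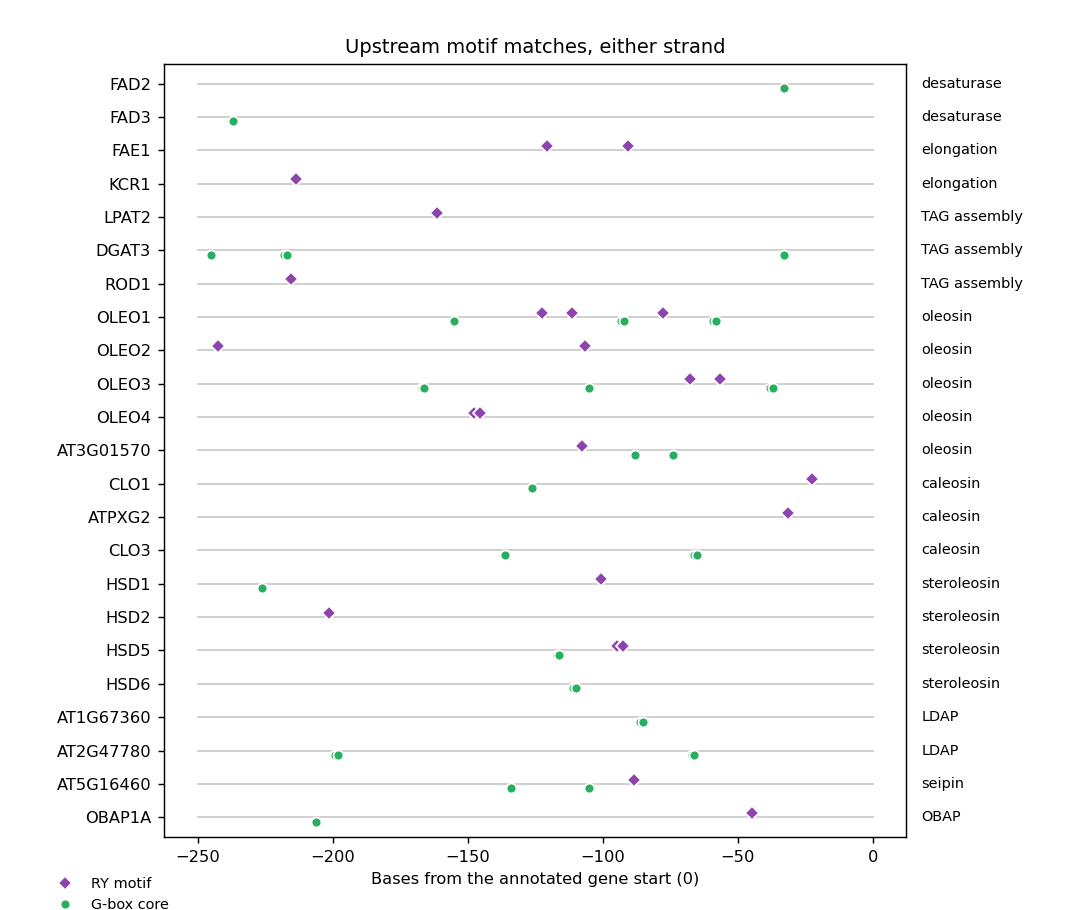
Matches to the RY motif (diamonds) and the G-box core (circles) in the 250 bases before the annotated gene start, for the 23 genes with at least 1 match; the x axis gives bases from the start. All 5 oleosins show diamonds, and none of the LDAP genes does, though these are only 4.

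Some of the matches sat in longer shared stretches. The caleosins CLO1 and ATPXG2 shared 16 letters close to the gene start, beginning 26 bases upstream in CLO1 and 35 in ATPXG2. OLEO1 and OLEO3 shared 12 letters, beginning 131 and 76 bases upstream. Both stretches hold an RY match, given in capitals.
CLO1 and ATPXG2: gTGCATGtccgccacg
OLEO1 and OLEO3: ttaacaCATGCA

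Across the 39 genes, dof4.1-3 seeds had higher levels of FAD3, of the caleosins ATPXG2 and CLO1, of OBAP1A and of the seipin AT5G16460, and lower levels of the caleosin CLO3 and of AT1G67360 in every library than Col-0 seeds, but no gene passed edgeR's quasi-likelihood test after adjustment. Of the 38 genes tested, 0 were called at an adjusted p under 0.05, where 0.121% of the 19003 genes tested were called higher and 0.963% lower. At an unadjusted p under 0.05, 8 genes (21.1%) were higher, against 6.33% of all genes, and 3 (7.9%) were lower, against 9.52%. DESeq2 called 4 higher (FAD3, ATPXG2, AT5G16460 and CLO1), against 1.22% of 19938 genes, and 2 lower (CLO3 and AT1G67360), against 2.96%, and limma-voom called 0. The genotypes did not overlap in 20 genes: all dof4.1-3 libraries were higher in 14 (36.8%), against 16.3% of all genes, and lower in 6 (15.8%), against 18.3%. Of these 6, AT2G47780 rested on 12, 4 and 8 counts in dof4.1-3, against 13 and 16 in Col-0. It exceeded the filter on low counts in only 1 dof4.1-3 library but in both Col-0 libraries. The median log2 fold change of the 38 genes was 0.22, beside 0.03 for all genes tested, and 26 of them had a positive value (68.4%, against 52.6% of all genes). Because the genes were chosen with earlier results of these data known, these shares describe the set and do not test it.

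**Figure D2:**
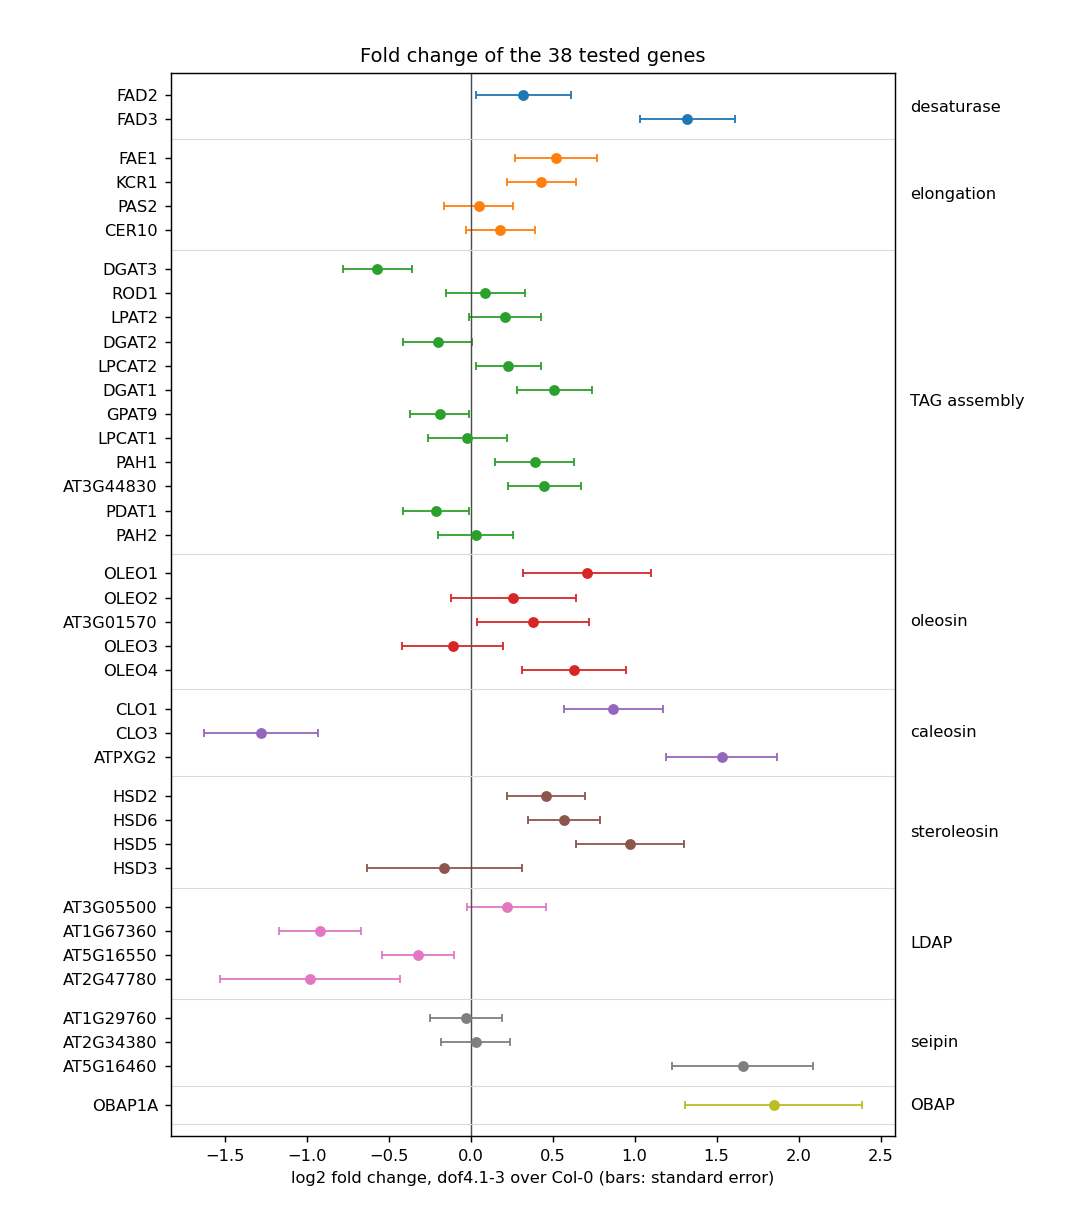
The log2 fold change of dof4.1-3 over Col-0 for each of the 38 tested genes (points) with its standard error (lines), grouped by class and ordered within a class by level. OBAP1A has the highest value (1.85) and CLO3 the lowest (-1.28).

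Levels spanned a wide range. Per kilobase of transcript, the 4 highest genes of the set were oleosins: OLEO1 averaged 19048 CPM per kilobase in dof4.1-3 and 11664 in Col-0, and OLEO2, AT3G01570 and OLEO3 stood behind it in both genotypes. FAD2 came next, at 2065 in dof4.1-3 and 1652 in Col-0. All 39 genes together took 4.054%, 3.831% and 4.598% of gene counts in dof4.1-3, against 4.001% and 2.890% in Col-0, and the 5 oleosins alone took 3.01%, 2.95% and 3.59%, against 3.12% and 2.06%. Both shares overlapped between the genotypes. Cruciferins and napins, the seed storage proteins, took a mean of 20.4% of gene counts in dof4.1-3 and 7.97% in Col-0. With them left out of the total, the groups no longer overlapped: the 39 genes took 4.72%, 5.34% and 5.68% in dof4.1-3, against 4.44% and 3.08% in Col-0, and the oleosins 3.498%, 4.104% and 4.437% in dof4.1-3, against 3.460% and 2.195% in Col-0. For the oleosins the nearest libraries of the 2 genotypes were almost level. Storage proteins took a larger share in every dof4.1-3 library, so leaving them out raises the dof4.1-3 shares more by construction. In TMM CPM the totals still overlapped. The 39 genes summed to 37120, 45144 and 50290 CPM in dof4.1-3, against 40708 and 24138 in Col-0. The oleosins summed to 27532, 34723 and 39310 CPM in dof4.1-3, against 31752 and 17210 in Col-0.

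**Figure D3:**
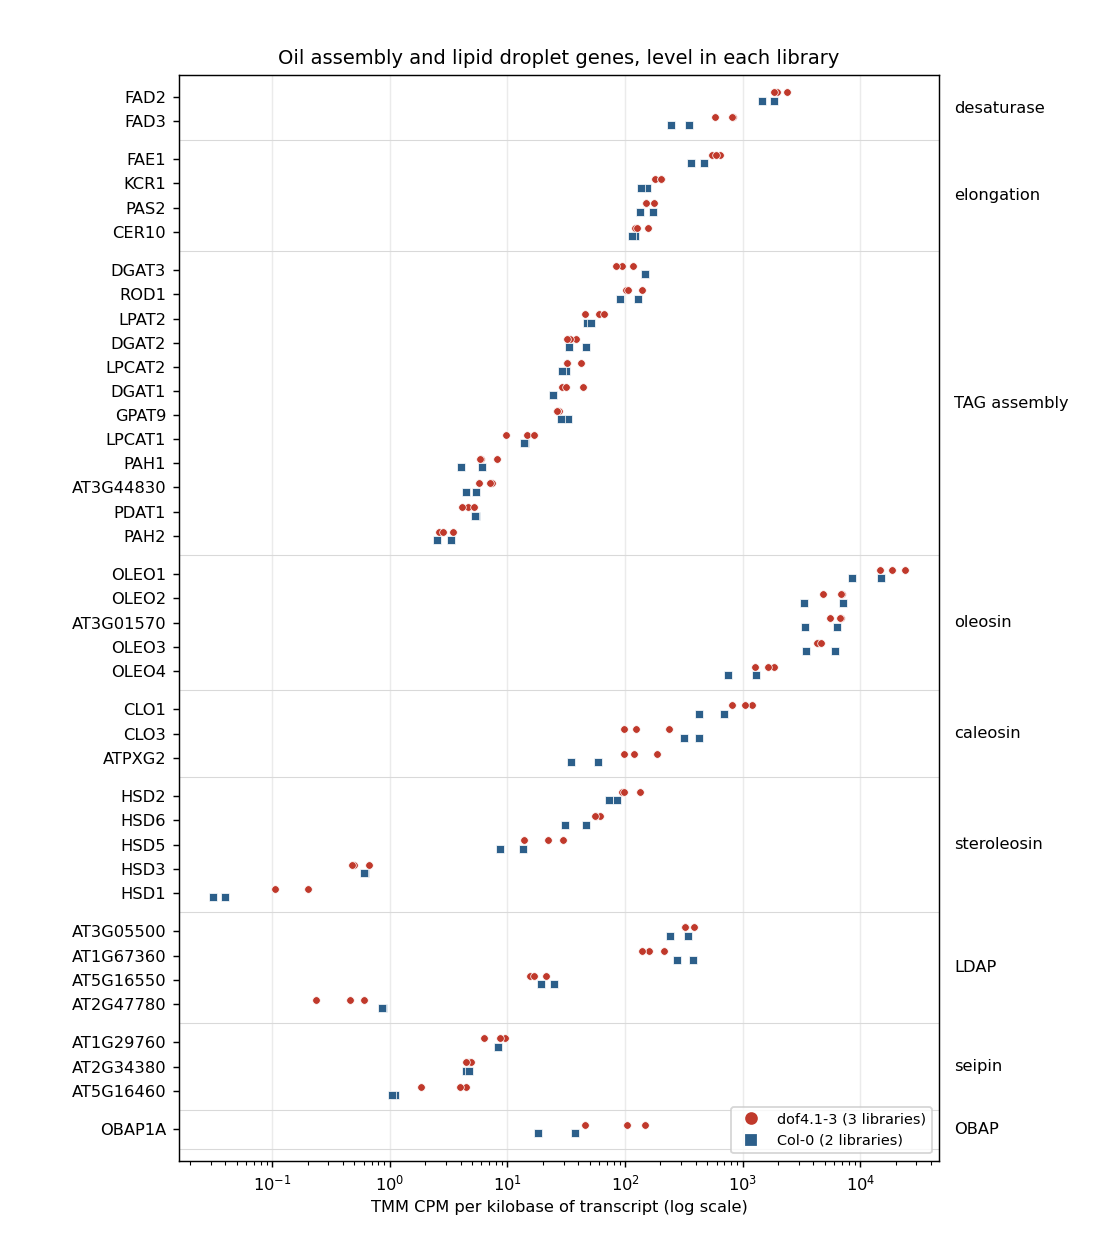
TMM CPM per kilobase of transcript (log axis) of each of the 39 genes in each library, dof4.1-3 as circles and Col-0 as squares, grouped by class. The 4 highest genes are oleosins, and the dof4.1-3 library in which HSD1 had 0 counts is not drawn.

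The desaturases act in sequence. FAD3 (AT2G29980), which makes linolenate, had 963, 1371 and 1352 CPM in dof4.1-3, against 578 and 409 in Col-0. The lowest dof4.1-3 library lay above the highest Col-0 library. Its log2 fold change was 1.32 (standard error 0.29, adjusted p = 0.0677 by edgeR's quasi-likelihood test), while DESeq2 gave an adjusted p of 5.93e-05. FAD2 (AT3G12120), the step before it, had 3866, 3644 and 4645 CPM in dof4.1-3, against 3619 and 2865 in Col-0, with the nearest libraries of the 2 genotypes almost level. Its log2 fold change was 0.32 (standard error 0.29, edgeR adjusted p = 0.620).

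Within a library, which removes the scaling between libraries, the FAD3 to FAD2 ratio of CPM was 0.249, 0.376 and 0.291 in dof4.1-3, against 0.1598 and 0.1428 in Col-0. The groups did not overlap, and the mean difference was 0.99 on the log2 scale. The exact two-sided permutation test gave p = 0.1, the smallest that 3 against 2 libraries allow (0.233 after Benjamini-Hochberg adjustment over 7 ratios).

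The elongation genes had positive fold changes that did not pass the test. FAE1 (AT4G34520), the condensing enzyme of the seed elongase, had 897, 1047 and 981 CPM in dof4.1-3, against 769 and 594 in Col-0. The groups did not overlap, and the log2 fold change was 0.52 (standard error 0.25, edgeR adjusted p = 0.345). KCR1, the ketoacyl reductase of the complex, also separated the genotypes (log2 fold change 0.43, edgeR adjusted p = 0.359). The dehydratase PAS2 and the enoyl reductase CER10 overlapped, with log2 fold changes of 0.05 and 0.18. The FAE1 to FAD3 ratio of CPM was 0.931, 0.764 and 0.725 in dof4.1-3, against 1.33 and 1.45 in Col-0. It lay lower in every dof4.1-3 library, by a mean difference of -0.79 on the log2 scale (exact permutation p = 0.1, adjusted 0.233).

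The TAG assembly genes lay on both sides of no change, with 7 of 12 log2 fold changes positive and a median of 0.06. DGAT1 (AT2G19450), the main acyl-CoA-dependent enzyme of seed TAG, had 101, 66.3 and 71.3 CPM in dof4.1-3, against 55.4 and 56.0 in Col-0. Every dof4.1-3 library was higher, at a log2 fold change of 0.51 (standard error 0.23, edgeR adjusted p = 0.313). PDAT1 (AT5G13640) had 14.4, 16.2 and 12.7 CPM in dof4.1-3, against 16.9 and 16.4 in Col-0. Its dof4.1-3 libraries were all lower by a narrow margin, at a log2 fold change of -0.21 (standard error 0.20, edgeR adjusted p = 0.646).

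DGAT3 (AT1G48300), a soluble acyltransferase, had 114, 142 and 101 CPM in dof4.1-3, against 177 and 178 in Col-0. It was lower in every dof4.1-3 library, and its log2 fold change of -0.57 (standard error 0.21, edgeR adjusted p = 0.232) was the furthest from 0 in the class. GPAT9, which starts glycerolipid assembly, was lower in every dof4.1-3 library too, at a log2 fold change of -0.19 (edgeR adjusted p = 0.638). AT3G44830, annotated as a lecithin:cholesterol acyltransferase family protein, and LPCAT2, which moves acyl groups into phosphatidylcholine, were higher in every one, at 0.45 and 0.23. Their edgeR adjusted p values were 0.352 and 0.618. For GPAT9, AT3G44830 and LPCAT2 the nearest libraries of the 2 genotypes were almost level. ROD1, which exchanges diacylglycerol with phosphatidylcholine, had 208, 152 and 159 CPM in dof4.1-3, against 190 and 135 in Col-0, and overlapped. Per kilobase, ROD1 had the highest mean level of the class in dof4.1-3 (116, beside 98.9 for DGAT3), and DGAT3 in Col-0 (147, beside 109 for ROD1). The 5 other genes, LPAT2, PAH1, PAH2, DGAT2 and LPCAT1, overlapped too, at log2 fold changes from -0.20 to 0.39. The DGAT1 to PDAT1 ratio of CPM was 6.991, 4.104 and 5.600 in dof4.1-3, against 3.28 and 3.42 in Col-0. All dof4.1-3 libraries were above both Col-0 libraries, by 0.70 on the log2 scale (exact permutation p = 0.2, adjusted 0.28).

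The oleosins, the main coat proteins, overlapped between genotypes in all 5 cases. OLEO1 (AT4G25140) had 13491, 16776 and 21620 CPM in dof4.1-3, against 13504 and 7679 in Col-0. The lowest dof4.1-3 library and the highest Col-0 library were level, and the log2 fold change was 0.71 (standard error 0.39, edgeR adjusted p = 0.415). OLEO2 (AT5G40420) had 4472, 6488 and 6378 CPM in dof4.1-3, against 6598 and 3069 in Col-0, so that 1 Col-0 library was above every dof4.1-3 library. Its log2 fold change was 0.26 (standard error 0.38, edgeR adjusted p = 0.775).

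OLEO3 (AT5G51210) had 3323, 3308 and 3557 CPM in dof4.1-3, against 4656 and 2666 in Col-0. Its dof4.1-3 libraries lay between the Col-0 libraries, at a log2 fold change of -0.11 (standard error 0.31, edgeR adjusted p = 0.895). OLEO4 (AT3G27660) had 1754, 2559 and 2295 CPM in dof4.1-3, against 1812 and 1040 in Col-0, and only its lowest dof4.1-3 library fell within the Col-0 range. Its log2 fold change was 0.63 (standard error 0.32, edgeR adjusted p = 0.382). AT3G01570, annotated as an oleosin family protein, had 4492, 5591 and 5460 CPM in dof4.1-3, against 5182 and 2756 in Col-0. It overlapped in the same way, at a log2 fold change of 0.38 (standard error 0.34, edgeR adjusted p = 0.617).

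The 2 Col-0 libraries differed from each other in all 5 oleosins, by 1.74 to 2.15 times, with replicate 2 the lower. In the same 2 libraries replicate 2 was the lower in 31 of the 38 tested genes, beside 49.3% of all genes tested. Leaving out Col-0 replicate 1 gave an oleosin median log2 fold change of 0.92 and leaving out Col-0 replicate 2 one of 0.00, beside 0.38 with all libraries.

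The oleosin total was also set against other seed products within each library. The oleosin to storage protein ratio of CPM, with cruciferins and napins summed, was 0.214, 0.105 and 0.189 in dof4.1-3, against 0.318 and 0.337 in Col-0. Every dof4.1-3 library was lower, by a mean of -1.02 on the log2 scale (exact permutation p = 0.1, adjusted 0.233). Both parts of this ratio had positive median log2 fold changes, 1.59 for the 9 storage protein genes and 0.38 for the 5 oleosins. The oleosin to LDAP ratio was 33.6, 51.7 and 60.8 in dof4.1-3, against 32.5 and 24.5 in Col-0. Here every dof4.1-3 library was higher, though the nearest pair differed little, with a mean difference of 0.74 (exact permutation p = 0.2, adjusted 0.28). The caleosin to oleosin and steroleosin to oleosin ratios overlapped, with mean differences of -0.07 and -0.01 (exact permutation p = 0.9 and 1.0, adjusted 1.0 for both). The steroleosin sum includes HSD1, whose counts are uncertain because a second gene copy holds its whole transcript.

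**Figure D4:**
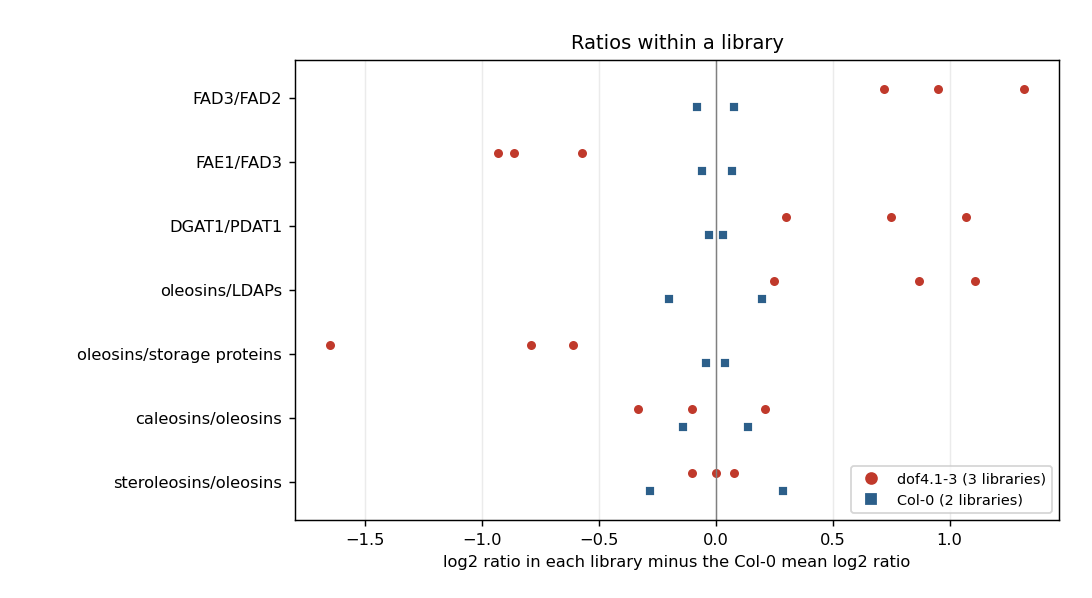
The log2 ratio of summed CPM within each library, minus the Col-0 mean of that ratio, for 7 ratios, with dof4.1-3 as circles and Col-0 as squares. The FAD3/FAD2, DGAT1/PDAT1 and oleosin/LDAP points of dof4.1-3 lie to the right of both Col-0 points, and the FAE1/FAD3 and oleosin/storage protein points to the left.

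The caleosins, calcium-binding coat proteins with peroxygenase activity, had fold changes of both signs. CLO1 (AT4G26740), the abundant seed caleosin, had 905, 1331 and 1150 CPM in dof4.1-3, against 765 and 469 in Col-0. All dof4.1-3 libraries were higher, at a log2 fold change of 0.87 (standard error 0.30, edgeR adjusted p = 0.200) and a DESeq2 adjusted p of 0.0428. ATPXG2 (AT5G55240) had 96.9, 186 and 119 CPM in dof4.1-3, against 58.4 and 34.3 in Col-0. Again no library overlapped, and the log2 fold change was 1.53 (standard error 0.34, edgeR adjusted p = 0.0714), while the DESeq2 adjusted p was 0.000416.

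CLO3 (AT2G33380), also known as RD20 and responsive to drought, had 129, 246 and 102 CPM in dof4.1-3, against 442 and 330 in Col-0. Every dof4.1-3 library was lower, at a log2 fold change of -1.28 (standard error 0.35, edgeR adjusted p = 0.125) and a DESeq2 adjusted p of 0.0117. CLO3 made up 11.4%, 14.0% and 7.44% of caleosin CPM in dof4.1-3, against 35.0% and 39.6% in Col-0, and CLO1 made up 80.0%, 75.5% and 83.9%, against 60.4% and 56.3%. The caleosin total overlapped between genotypes, at 1131, 1763 and 1371 CPM in dof4.1-3, against 1266 and 834 in Col-0.

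OBAP1A (AT1G05510), an oil body-associated protein, had 45.0, 145 and 103 CPM in dof4.1-3, against 36.4 and 17.7 in Col-0. The groups did not overlap, although dof4.1-3 replicate 1 stood near Col-0 replicate 1. The log2 fold change of 1.85 was the highest of the set and had the largest standard error among the members above 1 CPM in every library (0.54, edgeR adjusted p = 0.165, DESeq2 adjusted p = 0.126). Without dof4.1-3 replicate 1 it was 2.20 and passed edgeR's test (adjusted p = 0.0108). It did not pass without dof4.1-3 replicate 2 (1.46, edgeR adjusted p = 0.182) or dof4.1-3 replicate 3 (1.82, edgeR adjusted p = 0.312). Without Col-0 replicate 1 it was 2.47 and without Col-0 replicate 2 it was 1.42, and its adjusted p over the 16 alternatives ran from 0.0108 to 0.668, the highest with the replicate block.

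**Figure D5:**
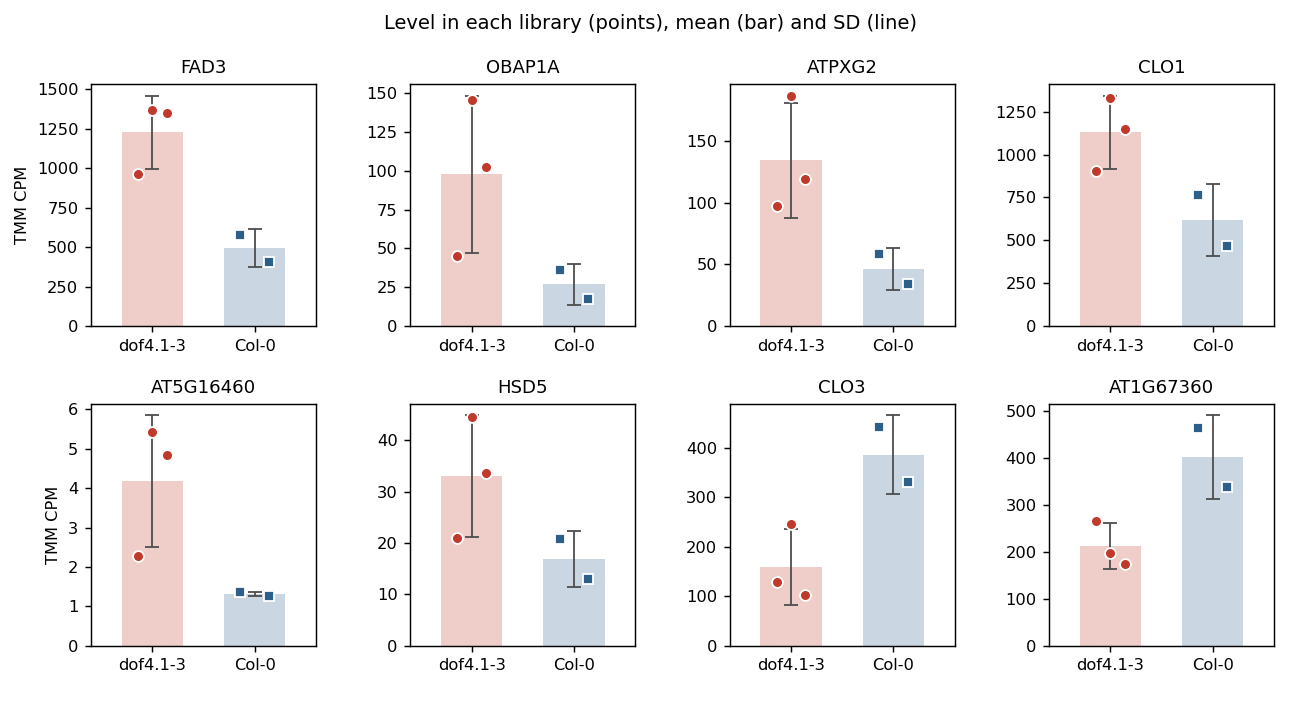
TMM CPM of 8 genes in each library (points), with the mean (bar) and SD (line) of 3 dof4.1-3 and 2 Col-0 libraries. FAD3, OBAP1A, ATPXG2, CLO1, AT5G16460 and HSD5 are higher in every dof4.1-3 library, and CLO3 and AT1G67360 are lower.

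Among the seipins, AT5G16460 had 2.28, 5.42 and 4.83 CPM in dof4.1-3, against 1.36 and 1.27 in Col-0, from 50, 100 and 93 counts against 22 and 26. Every dof4.1-3 library was higher, at a log2 fold change of 1.66 (standard error 0.43, edgeR adjusted p = 0.103) and a DESeq2 adjusted p of 0.0243. AT1G29760, the seipin with the highest level, had 13.2, 19.6 and 17.8 CPM in dof4.1-3, against 17.1 and 17.3 in Col-0. It overlapped, as did AT2G34380, and their log2 fold changes were -0.03 and 0.03.

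The steroleosins are droplet proteins with a hydroxysteroid dehydrogenase domain. HSD2 (AT3G47350), the most abundant of the 4 tested, had 246, 253 and 352 CPM in dof4.1-3, against 222 and 190 in Col-0. It was higher in every dof4.1-3 library, at a log2 fold change of 0.46 (standard error 0.24, edgeR adjusted p = 0.387). HSD5 (AT4G10020) had 20.9, 44.5 and 33.6 CPM in dof4.1-3, against 20.7 and 13.0 in Col-0. The nearest libraries of the 2 genotypes were almost level, and the log2 fold change was 0.97 (standard error 0.33, edgeR adjusted p = 0.202).

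HSD6 was also higher in every dof4.1-3 library (log2 fold change 0.57, edgeR adjusted p = 0.254), and HSD3, at under 1 CPM in all libraries, overlapped. HSD1 (AT5G50600) had 0, 3 and 6 counts in dof4.1-3, against 1 and 1 in Col-0, and was not tested. Its transcript of 1549 bases lies whole within that of AT5G50700, a neighbouring copy on chromosome 5 that had 0 counts in all 5 libraries, and the table lists 0 reads that aligned to more than 1 place. The counts of both copies are therefore uncertain.

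The LDAPs are known best as droplet coat proteins of vegetative tissues. AT1G67360, annotated as a rubber elongation factor (REF) protein, had 267, 198 and 174 CPM in dof4.1-3, against 466 and 339 in Col-0. It was lower in every dof4.1-3 library, at a log2 fold change of -0.92 (standard error 0.25, edgeR adjusted p = 0.123) and a DESeq2 adjusted p of 0.0173. AT3G05500, a second REF protein gene, had 533, 448 and 453 CPM in dof4.1-3, against 480 and 340 in Col-0. It overlapped, at a log2 fold change of 0.22 (standard error 0.24, edgeR adjusted p = 0.686).

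AT2G47780, the third REF protein gene, had 0.547, 0.217 and 0.416 CPM in dof4.1-3, against 0.802 and 0.784 in Col-0. These levels rest on 12, 4 and 8 counts in dof4.1-3, against 13 and 16 in Col-0, and only 1 dof4.1-3 library but both Col-0 libraries exceeded the filter on low counts. The log2 fold change of -0.98 had a standard error of 0.55 (edgeR adjusted p = 0.422). AT5G16550 overlapped, at a log2 fold change of -0.32.

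Further genes of oil metabolism were taken from 3 lists. Over all genes tested by edgeR, 6.33% were higher and 9.52% lower at an unadjusted p under 0.05. After adjustment, edgeR called 0.121% higher and 0.963% lower, and DESeq2 called 1.22% higher and 2.96% lower. Of 22 genes of acyl supply and further TAG steps, 21 were tested and 0 were called by edgeR, DESeq2 or limma-voom, with 2 higher and 1 lower at an unadjusted p under 0.05. ACC1, the cytosolic acetyl-CoA carboxylase that supplies elongation, had the smallest p (log2 fold change 0.64, edgeR adjusted p = 0.224), followed by the acyl-CoA synthetase LACS8 (-0.50, edgeR adjusted p = 0.224). Of 23 other lipid droplet genes, 16 were tested and 0 were called by edgeR or limma-voom, with 6 higher and 1 lower at an unadjusted p under 0.05, while DESeq2 called 2 higher and 1 lower. The smallest p values were those of AT3G14360, annotated as an alpha/beta-hydrolase (0.99, edgeR adjusted p = 0.0809), and AT1G70680, annotated as a caleosin-related family protein (-0.96, edgeR adjusted p = 0.0947).

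Among 10 regulators of seed oil and maturation, 1 passed. LEC1, a master regulator of embryo maturation, had 19.0, 15.6 and 22.9 CPM in dof4.1-3, against 56.5 and 46.3 in Col-0. It fell in dof4.1-3, with no overlap and a log2 fold change of -1.42 (standard error 0.21, edgeR adjusted p = 0.0209). It was not called with the length trend removed (-1.18, edgeR adjusted p = 0.0616), nor with the replicate block as well (-1.35, edgeR adjusted p = 0.154). Its log2 fold change was -1.27 without Col-0 replicate 1 (edgeR adjusted p = 0.325) and -1.56 without Col-0 replicate 2 (edgeR adjusted p = 0.240). With 1 Col-0 library the spread comes from dof4.1-3 alone, and these fits called 1 gene higher and 2 lower, or 0 in either direction, in the whole table, so they say little about LEC1 itself. Over the 16 alternatives its adjusted p ran from 7.98e-06 to 0.325. The other 9 were not called by edgeR, with 3 higher and 1 lower at an unadjusted p under 0.05, and DESeq2 also called ABI3, a B3-domain activator of seed maturation genes, higher (log2 fold change 0.86, adjusted p = 0.0316).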

How the data were processed

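Per the labels and the study's methods, RNA from seeds 9 days after pollination (10 in the study's results text) was sequenced in 50-base read pairs, trimmed with cutadapt, checked with FastQC, mapped to TAIR10 with HISAT2 and counted by the authors with htseq-count without strand. No version of these tools and no annotation release was found in those sources. Raw counts of 37336 genes were deposited as 1 table, with 0 columns of other samples. The labels write the mutant as dof4-1, and its allele was taken from the paper. Lines that name no gene were left out, with reads outside features at 0.727% to 1.74% and ambiguous reads at 3.09% to 3.92% of each library.

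Genotypes were compared over all 5 libraries with edgeR 4.0.16 (R 4.3.3): filterByExpr (19003 genes kept), TMM scaling, glmQLFit with robust = TRUE, glmQLFTest and Benjamini-Hochberg adjustment over all genes, called at 0.05, with 3 residual degrees of freedom. DESeq2 1.42.0, limma 3.58.1 (voom), other scalings and filters, a replicate block, a length correction and each library left out were alternatives, 16 in all. The edgeR step was tested on simulated data. Levels are TMM CPM. Levels between genes were set per kilobase of the longest annotated transcript in RefSeq TAIR10.1, which also gave the upstream windows. Ratios were compared by an exact permutation test. Named genes were those called, the most abundant and the furthest changed of each class, all oleosins and caleosins, FAD2, FAD3, FAE1, DGAT1, PDAT1 and AT5G16460, and up to 4 called genes of each list, or the 2 with the smallest p. The genes and lists were chosen with earlier results of these data known. The other members are given by value or range, and ABI3 and EPR1 were named after their values were seen. Since counts were made without strand, overlapping antisense transcription cannot be told apart.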

Additional observations from a re-analysis of the deposited data

How the results depend on the processing

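None of the 38 tested genes was called under limma-voom, RLE or upper-quartile factors, scaling without the 50 most abundant genes, a minimum of 10 counts in every library, robust = FALSE or the block combined with the length correction. DESeq2 called 4 higher and 2 lower, edgeR without a filter on low counts 3 and 1, and edgeR with the length trend removed 1 and 0 (ATPXG2). The fits without 1 Col-0 library take their spread from dof4.1-3 alone, assuming that the lone Col-0 library varies alike. Leaving out each library gave 0 to 5 higher and 0 to 1 lower. FAD3 and ATPXG2 passed without dof4.1-3 replicate 1 and without dof4.1-3 replicate 2. Over the whole table, 23 genes were called higher and 183 lower, against 244 and 590 by DESeq2, 170 and 565 without a filter, 10 and 44 with the length trend removed, 2 and 2 with the block and length correction, and 0 to 181 and 0 to 707 with 1 library left out. For other lipid droplet genes, DESeq2 called 2 higher and 1 lower, no filter gave 1 and 1, and leaving out a library 0 to 2 and 0 to 1. For regulators, DESeq2 called 1 higher and no filter 2, leaving out a library gave 0 to 2 higher and 0 to 1 lower, and the length correction, with or without the block, gave 0 lower. The causes were not tested.

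Signs turned for small fold changes, none of them called. With the length trend removed, PAH2 was -0.22 and OLEO3 0.23, and with the block as well they were -0.21 and 0.19, while LPCAT1 was 0.12 and HSD3 0.03. With 1 library left out, the log2 fold change ranged from -0.11 to 0.24 for PAS2, from -0.15 to 0.24 for PAH2, from -0.41 to 0.06 for DGAT2, from -0.14 to 0.36 for ROD1, from -0.18 to 0.18 for LPCAT1, from -0.19 to 0.92 for OLEO2, from -0.46 to 0.35 for OLEO3, from 0.00 to 0.92 for AT3G01570, from -0.01 to 0.50 for AT3G05500 and from -0.14 to 0.12 for AT1G29760. The difference of the caleosin to oleosin ratio ranged from -0.22 to 0.07 and that of the steroleosin to oleosin ratio from -0.29 to 0.28, the second being 0.04 from counts per kilobase.

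Medians with 1 library left out ranged from 0.15 to 0.36 for the tested genes of the set, from 0.62 to 1.05 for desaturases, from 0.24 to 0.38 for elongation, from -0.07 to 0.14 for TAG assembly, from 0.00 to 0.92 for oleosins, from 0.56 to 1.27 for caleosins, from 0.32 to 0.74 for steroleosins, from -0.75 to -0.39 for LDAP genes, from 0.00 to 0.12 for seipins and from 0.02 to 0.04 for all genes tested. The oleosin median of 0.38 was 0.70 with the length trend removed and 0.67 with the block as well. The LDAP median of -0.62 was -0.33 with at least 10 counts in every library, which leaves out AT2G47780, and -0.39 with the block and length correction. The median of all genes was 0.01 by limma-voom, 0.01 with the block and 0.00 with the block and length correction. Without cruciferins and napins in the total, the mean share was 5.243% in dof4.1-3 and 3.757% in Col-0 for the 39 genes, and 4.013% in dof4.1-3 and 2.827% in Col-0 for oleosins.

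Deviations of same-numbered libraries from their genotype means had correlations of -0.250 and -0.288. With only 2 Col-0 libraries these deviations mirror each other, so the correlations cannot settle whether libraries were paired. The labels name no pairing, and the numbers were read as names only. With the replicate block, 1 of the 38 genes was called higher (ATPXG2, edgeR adjusted p = 0.0410), PAS2 was -0.01 and LPCAT1 0.17. Replicate 3 exists only in dof4.1-3, so the block fits that library exactly. The genotype difference then rests on replicates 1 and 2, with fewer residual degrees of freedom than the 3 of the main fit.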
